A study of Homo sapiens with 12 samples.

Results

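The replication-dependent histone genes encode the linker histone H1 and the core histones H2A, H2B, H3 and H4 that package newly made DNA. They were taken as the RefSeq protein-coding genes named H1-1 to H1-6, or H2AC, H2BC, H3C or H4C followed by digits. This rule, which uses names alone, found 69 genes among 20037 protein-coding genes. A region of a list was given to a histone gene when it overlapped the gene's span by at least 1 base on the gene's strand. By this rule 3 of the 1190 regions of the WT list and 11 of the 2921 regions of the 5xA list fell in histone genes.

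The regions come from eCLIP, in which RNA is crosslinked to a protein by ultraviolet light, recovered with the protein by immunoprecipitation (IP) and sequenced. HCT116 cells, a widely used line from a human colorectal carcinoma, were grown for 48 h and crosslinked at 400 mJ/cm2. An anti-FLAG antibody was used for the IPs. The lists belong to cells with FH-AGO2 WT and to cells with FH-AGO2 5xA, tagged forms of the Argonaute protein AGO2, of which 5xA has alanines in place of a cluster of phosphorylated residues. The labels do not say whether the tagged lines are single clones or which untagged AGO2 they still carry. AGO2 knockout cells served as a control, and their libraries and all inputs were not analysed here. The labels assign 1 list to both IP replicates of a genotype, so no spread between replicates can be given and no difference between WT and 5xA was tested. The depth behind each region is unknown. Shares carry exact 95% intervals (Clopper-Pearson), which cover counting error only. They treat genes or regions as independent, which related histone genes may not be.

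Replication-dependent histone mRNAs are made in S phase, mostly from short genes without introns that lie in clusters. They are the mRNAs of animal cells that end in a conserved stem-loop, bound by SLBP, in place of a poly(A) tail. AGO2 carries miRNAs, which usually pair with the 3' part of polyadenylated mRNAs. Some histone genes also give longer, polyadenylated transcripts. Whether a member was transcribed in S phase cannot be read from a region list.

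In all, 11 of the 69 histone genes held a region and 58 held none. With WT the genes were H2BC12, H3C14 and H4C16. With 5xA they were the same 3 and H2AC6, H2AC13, H2AC15, H2AC17, H3C4, H3C15, H4C4 and H4C14. Each gene held 1 region in a list, and 0 genes held a region with WT alone. Of all protein-coding genes of the WT list, 72 of 672 held a region with WT alone. The WT share was 4.35% (3 of 69, interval 0.906 to 12.2), beside 3.35% of all protein-coding genes (672 of 20037). The 5xA share was 15.9% (11 of 69, interval 8.24 to 26.7), beside 7.45% of all protein-coding genes (1492 of 20037). With every gene counted separately, the WT interval spans its background, and the 5xA interval begins above its own. Among the 11 are H3C14 and H3C15, whose promoter windows are identical. With such copies counted as 1 gene the 5xA list had 10, and no interval is given for that count. The 5xA list had 3.67 times as many histone genes as the WT list, 2.22 times as many protein-coding genes and 2.45 times as many regions.

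Histone genes are short, with a median span of 494 bases against 24115 bases for all protein-coding genes. Of the 69, 61 span at most 1000 bases. Among other protein-coding genes that short, 0.642% held a WT region (3 of 467) and 0.642% a 5xA region (3 of 467). These were MIF, the gene of a cytokine, in the WT list, MT2A, the gene of a metal-binding metallothionein, in the 5xA list, and 4 loci known by LOC numbers. How many of the short genes are transcribed in these cells was not measured, so their low share is a description.

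**Figure D1:**
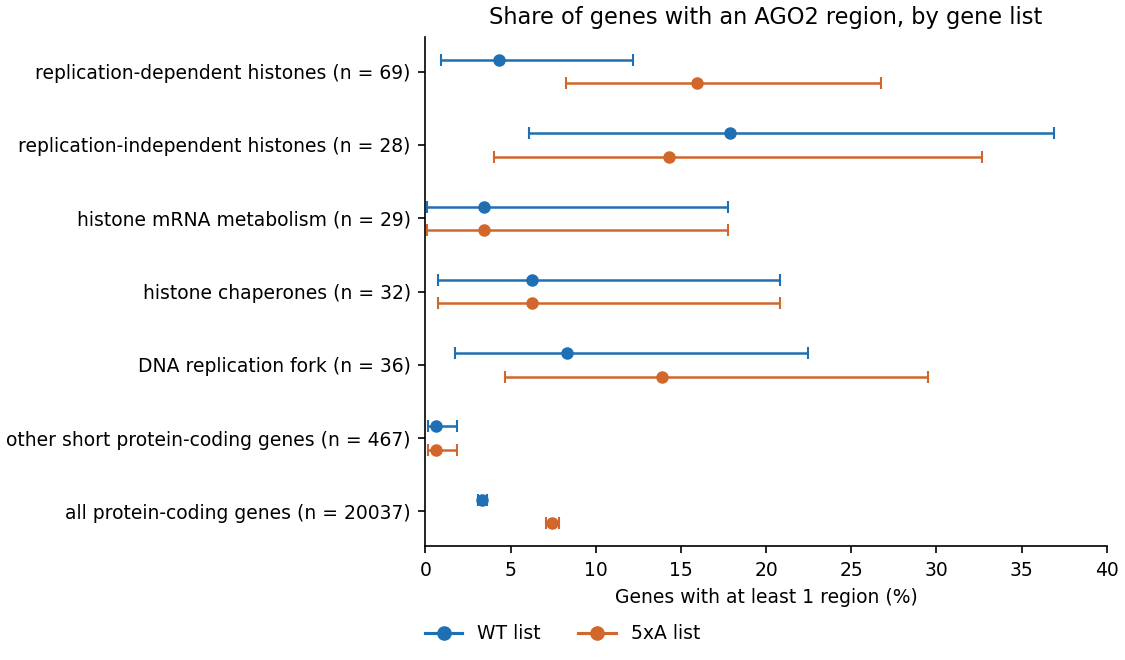
Share of genes with at least 1 region (x axis, percent) in each gene list (y axis, n genes), for the WT list (blue) and the 5xA list (orange). Points are shares and bars exact 95% intervals. The histone share is 4.35% with WT and 15.9% with 5xA, beside 3.35% and 7.45% of all protein-coding genes.

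No sequence under the histone regions was used here, since none of the 14 regions reached the RefSeq promoter window of its own gene. The windows run from 250 bases before to 50 bases after the annotated start, on GRCh38.p14. They show which histone genes have near-identical promoter sequence and do not show how alike the transcribed parts are. Identity was counted without gaps, at the best of shifts of up to 10 bases. Among 64 members with a window, 4 of 2016 gene pairs were at least 95% identical, over a median pair at 30.9%. Those pairs were H3C14 with H3C15 (0 differences in 296 bases), H4C14 with H4C15 (0 in 300), H2AC18 with H2AC19 (0 in 299) and H4C11 with H4C12 (5 in 300). The 100 bases before the start of the first and second pair are shown, 5′ to 3′, because 3 of their genes held a region. Capitals mark a TATAAA or CCAAT motif, or its reverse complement. The stretches lie at chr1:149841209-149841308 (minus strand), chr1:149852504-149852603 (plus strand), chr1:149832557-149832656 (plus strand) and chr1:149861160-149861259 (minus strand). That of H3C15 ends 4 bases further from its annotated start.
H3C14: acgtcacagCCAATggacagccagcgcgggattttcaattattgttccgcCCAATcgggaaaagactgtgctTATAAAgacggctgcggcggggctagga
H3C15: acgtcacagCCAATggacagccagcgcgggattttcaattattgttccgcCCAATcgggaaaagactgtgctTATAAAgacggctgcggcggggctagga
H4C14: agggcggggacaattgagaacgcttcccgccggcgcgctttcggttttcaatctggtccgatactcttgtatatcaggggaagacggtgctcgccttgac
H4C15: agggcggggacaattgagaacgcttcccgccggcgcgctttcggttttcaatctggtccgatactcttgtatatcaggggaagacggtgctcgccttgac

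Within each of these pairs the letters are the same at all 100 positions. Positions of regions are given below on hg38, whose chromosomes have the coordinates of GRCh38.p14. The first base of an annotated transcript counts as 1.

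The linker histone genes held no region. All 6 members of H1, which binds the DNA between nucleosomes, were without one in both lists, and 0 of 6 allows a share of up to 45.9%. They are the longest of the short members, with spans of 724 to 797 bases. This limit lies above the 5xA share of every core histone class, so a lower share of H1 was not detectable.

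Among H2A genes, regions were listed with 5xA but not with WT. H2A forms the dimer with H2B on the outside of the nucleosome core. Of 17 H2A genes, 4 held a 5xA region (23.5%, interval 6.81 to 49.9) and 0 a WT region (up to 19.5%). These intervals overlap. H2AC13 (NCBI gene 8329) spans 27808173 to 27808667 of chromosome 6 on the plus strand, and its region covered 27808284 to 27808352. H2AC15 (gene 8330) spans 27837880 to 27838375 on the minus strand, with a region from 27838199 to 27838263. H2AC17 (gene 8336) spans 27892699 to 27893185 on the minus strand, with a region from 27893003 to 27893084. These are all the members with a region in the third histone cluster of chromosome 6.

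The regions of these 3 H2A genes lay at the same distance from the start of their transcripts. They ran from base 112 to 180 in H2AC13, from 113 to 177 in H2AC15 and from 102 to 183 in H2AC17. Each gene pair had 65 to 69 of these positions in common, so that the shortest region, of 65 bases, lay wholly within the interval of each of the other two. All 3 regions ended more than 300 bases before the downstream gene end, at 315, 319 and 304 bases from it. H2AC6 (gene 8334, 26124172 to 26124690 of chromosome 6, plus strand) differed from them. Its region, from 26124588 to 26124674, covered bases 417 to 503 of the transcript and ended 16 bases before the downstream end.

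The 80 bases before the start of the 3 H2A genes are shown to compare their promoters. These bases lie upstream of the transcripts and so outside the regions. They lie at chr6:27808093-27808172 (plus strand), chr6:27838376-27838455 (minus strand) and chr6:27893186-27893265 (minus strand), with the same motifs in capitals.
H2AC13: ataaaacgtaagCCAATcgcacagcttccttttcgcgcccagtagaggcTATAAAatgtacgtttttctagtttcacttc
H2AC15: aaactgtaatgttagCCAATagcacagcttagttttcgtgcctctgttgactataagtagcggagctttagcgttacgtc
H2AC17: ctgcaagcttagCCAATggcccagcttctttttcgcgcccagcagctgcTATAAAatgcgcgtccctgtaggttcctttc

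Each holds a CCAAT motif, and H2AC13 and H2AC17 hold TATAAA. Position by position and without gaps, H2AC13 and H2AC17 differed at 21 of 80 bases, and H2AC15 differed from either at 57 of 80. The stretches were not shifted against each other for this count, and the CCAAT of H2AC15 lies nearer its start than the others. The count for H2AC15 therefore does not measure its likeness with the motifs lined up. The window most like that of H2AC13 was that of H2AC14, which held no region, at 84% identity over 300 bases. For H2AC15 and H2AC17 the closest member windows were at 44.4% (H2AC16) and 41.0% (H2AC14). Without gaps, a count over whole windows can miss likeness in a part of them. Their transcribed bases 102 to 183 were not analysed here, and whether reads could be placed in one H2A gene alone was not tested.

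TATAAA or its reverse complement was present in the windows of 9 of 11 members with a region (81.8%), of 34 of 53 members without one (64.2%) and of 9.47% of all protein-coding windows. CCAAT or its reverse complement was present in 8 of 11 (72.7%), 46 of 53 (86.8%) and 34.7%. Both motifs are known elements of histone promoters. Most histone windows held them with or without a region.

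H2B had 1 gene with a region, in both lists. Of 18 H2B genes this was H2BC12 (gene 85236), at 5.56% (interval 0.141 to 27.3) in either list. Its span, 27138293 to 27146858 on the minus strand of chromosome 6, is 8566 bases long. The WT region covered 27146371 to 27146575 (205 bases) and the 5xA region 27146369 to 27146492 (124 bases). Counted from the nearer of its annotated starts, these were bases 281 to 485 and 364 to 487. Both regions therefore ended within 2 bases of each other, 8078 (WT) and 8076 bases (5xA) short of the far end of the long span, and about at the length of a usual H2B gene (median span 484.5 bases). They had 122 bases in common, 59.5% of the WT region and 98.4% of the 5xA region.

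Among H3 genes, 3 of 13 held a region with 5xA (23.1%, interval 5.04 to 53.8) and 1 with WT (up to 36.0%). H3 and H4 form the tetramer at the centre of the nucleosome. H3C14 (gene 126961, 149840687 to 149841208 of chromosome 1, minus strand) held the WT region 149840702 to 149840886 and the 5xA region 149840713 to 149840859. The 5xA region, of 147 bases, lay wholly within the WT region, of 185 bases. They covered bases 350 to 496 and 323 to 507 of the transcript, and ended 26 and 15 bases before its downstream end.

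H3C15 (gene 333932, 149852608 to 149853125 of chromosome 1, plus strand) has the same promoter window as H3C14, shown above. It held a 5xA region from 149852947 to 149853047, bases 340 to 440 of its transcript, of which 91 lay at positions that the 5xA region of H3C14 also covered. No WT region was listed there. The transcribed sequence of these genes was not compared here, and whether reads could be placed in one of them alone was not tested. The same region lies in the span of H4C15, which runs on the opposite strand.

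H3C4 (gene 8351, chromosome 6, minus strand) held a 5xA region from 26196827 to 26196921. RefSeq gives it starts at 26199293 and at 26197286, and the region covered bases 366 to 460 of the 503-base transcript that begins at the second. It ended 43 bases before the downstream end. All 3 pairs of H3 genes had regions at overlapping distances from the start, with 75 to 95 bases in common.

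Of 15 H4 genes, 3 held a 5xA region (20%, interval 4.33 to 48.1) and 1 a WT region (up to 31.9%). H4C16 (gene 121504, 14770720 to 14771131 of chromosome 12, minus strand) lies outside the clusters, with no other of the 69 genes within 500 kb. Its WT region, 14770721 to 14770785, and its 5xA region, 14770734 to 14770798, were each 65 bases wide and had 52 bases (80% of each) in common. The 5xA region lay 13 bases nearer the start. The WT region reached to 1 base from the downstream end of the gene, the closest of all histone regions.

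H4C4 (gene 8360, 26188710 to 26189112 of chromosome 6, minus strand) held a 5xA region from 26188716 to 26188784, bases 329 to 397 of the transcript and 6 bases from the downstream end. Of its 69 bases, 64 were at the same distances from the start as those of the 5xA region of H4C16. H4C14 (gene 8370, 149832657 to 149833052 of chromosome 1, plus strand) held a 5xA region from 149832747 to 149832824, bases 91 to 168. H4C15, which has the same promoter window, held no region on its own strand. The transcribed sequence under the H4C14 region was not compared with that of H4C15.

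**Figure D2:**
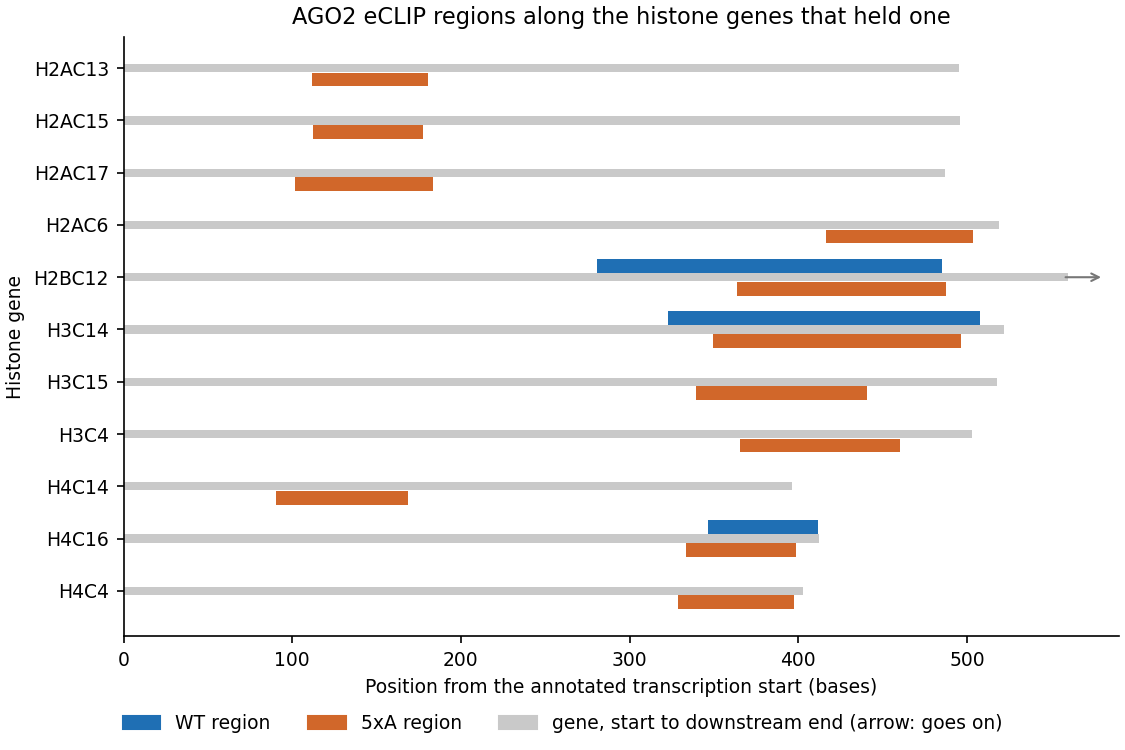
Regions along the 11 histone genes that held one (y axis), by position from the annotated start (x axis, bases). Grey bars are the genes from that start to the downstream end (H2BC12 goes on past the plot), blue boxes WT regions and orange boxes 5xA regions. In H2AC13, H2AC15, H2AC17 and H4C14 the 5xA region begins between bases 91 and 113, and in the other 7 genes between 329 and 417.

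Across the classes, the 5xA regions thus lay in 2 parts of the transcripts. In 4 genes, H2AC13, H2AC15, H2AC17 and H4C14, they began between bases 91 and 113 and ended between 168 and 183. In the other 7 they began between bases 329 and 417. The 3 WT regions, in H2BC12, H3C14 and H4C16, were all in genes of the second kind. This division was drawn after the positions were seen. In the 5xA list 5 of the 11 histone regions (45.5%) ended within 50 bases of the downstream gene end, against 4.05% of 2149 regions in other protein-coding genes of known strand. In the WT list these were 2 of 3 and 4.43% of 858. In other protein-coding genes of at most 1000 bases and known strand, 1 of 1 region with 5xA and 2 of 2 with WT ended so. In histone genes of that length these were 4 of 9 and 2 of 2. These are too few regions to compare. The median span was 494 bases for histone genes against 24115 for all protein-coding genes. Whether span bears on this difference was not tested, nor was the difference itself.

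With the span of each gene divided into equal upstream, middle and downstream parts, 6 of 11 5xA histone regions had their midpoint downstream (54.5%), 5 upstream and 0 in the middle. Among regions of other protein-coding genes 85.5% lay in the downstream part with 5xA and 88.1% with WT. The upstream part held 6.61% and 4.43% of these. H2BC12 counts as upstream only through its long span. In the genes of at most 1000 bases, 4 of 9 histone regions were upstream. Long genes hold introns and long 3' ends, so the shares are set beside each other without a test.

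All 3 WT histone regions overlapped a 5xA region (100%, interval 29.2 to 100), beside 81.3% of all WT regions. Of the 11 5xA histone regions, 3 overlapped a WT region (27.3%, interval 6.02 to 61.0), beside 32.3% of all 5xA regions. Both shares include the value of the whole list in their interval. In terms of genes, 8 of 11 histone genes of the 5xA list had no WT region (72.7%, interval 39.0 to 94.0), beside 59.8% of all protein-coding genes of that list.

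The histone regions found with 5xA alone were narrow. Their 8 widths ran from 65 to 101 bases with a median of 80, and all 8 were below the median of the 5xA list, 104 bases. The 3 that overlapped a WT region were 65 (H4C16), 124 (H2BC12) and 147 bases (H3C14) wide. Over all 5xA regions the median was 93 bases without and 145 bases with WT overlap. In the WT list H4C16 (65 bases) lay below the lower quartile of 87 bases, and H3C14 (185 bases) and H2BC12 (205 bases) above the upper quartile of 161 bases. In H2BC12 and H3C14 the WT region was the wider, by 81 and 38 bases, and in H4C16 the widths were equal.

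**Figure D3:**
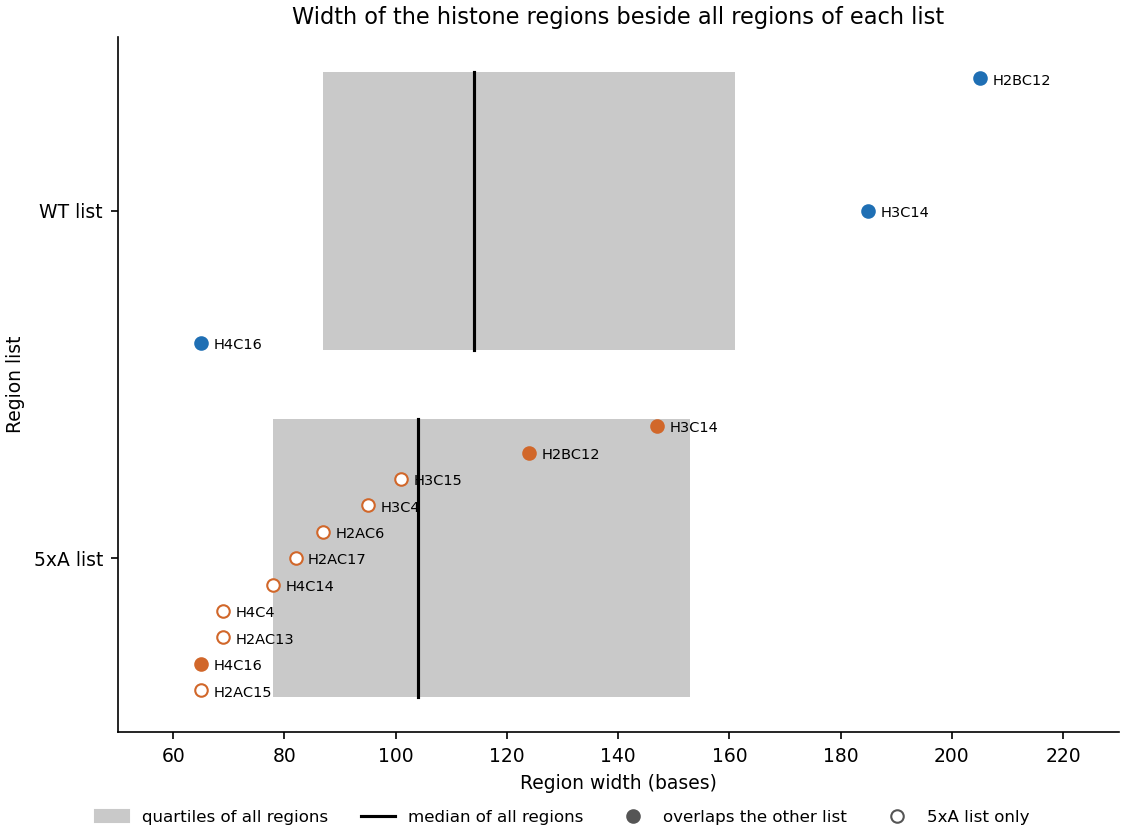
Width of each histone region (x axis, bases) in the WT and the 5xA list (y axis; height within a list only separates the points). Filled points overlap the other list and open points do not, grey boxes are the quartiles of all regions of the list and black lines their medians. The 8 open points lie between 65 and 101 bases, left of the 5xA median of 104.

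The genes with regions were spread over 5 of the 6 histone loci, taken as members no more than 500 kb from the next. The first cluster of chromosome 6 (25726063 to 26285534) holds 34 genes, of which H2AC6, H3C4 and H4C4 held a 5xA region and 31 none. The second (27132316 to 27147562) holds 5 genes, with H2BC12 in both lists. In the third (27807479 to 27893891) 3 of 16 genes, all H2A, held a 5xA region. On chromosome 1, the cluster from 149782689 to 149887965 holds 11 genes, with H3C14 in both lists and H3C15 and H4C14 in that of 5xA. The pair H2AC25 and H2BC26, further along chromosome 1, held none, and H4C16, the only member of its locus, was in both lists. By strand, 7 of 36 genes on the minus and 4 of 28 on the plus strand held a 5xA region. All 3 genes with a WT region lie on the minus strand.

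**Figure D4:**
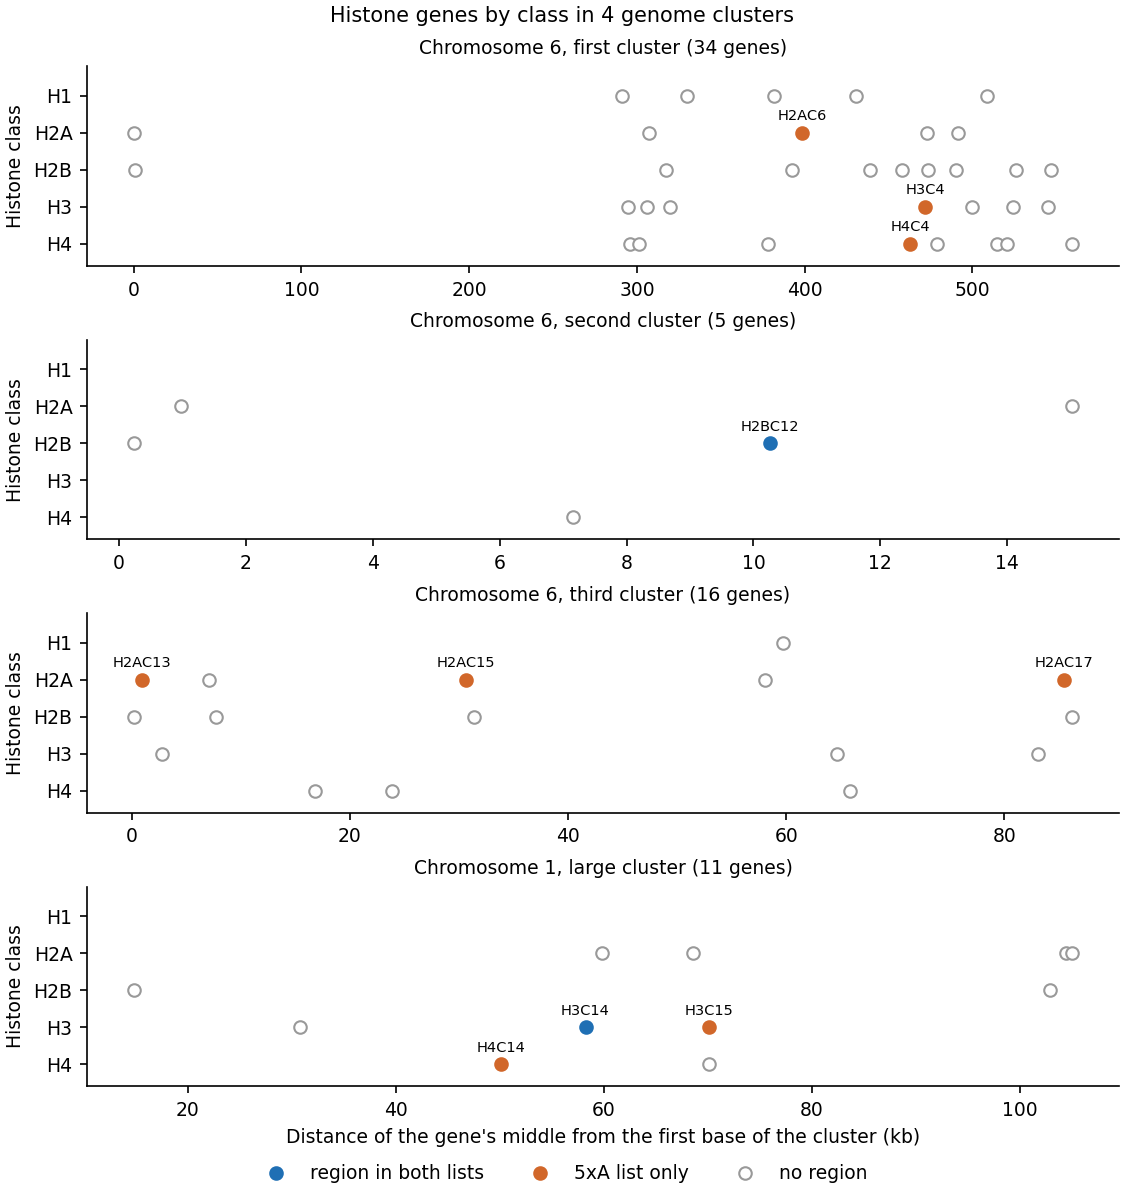
Histone genes (points) of 4 clusters by class (y axis) and distance from the first base of the cluster (x axis, kb, a scale for each panel). Blue marks a region in both lists, orange in the 5xA list alone and open grey none. Genes with a region are spread along the clusters, 3 of 34, 1 of 5, 3 of 16 and 3 of 11 from top to bottom.

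Many H2A and H2B genes lie head to head and share a promoter. Among 11 such H2A and H2B pairs with starts at most 500 bases apart (median 235 bases), 4 had a region in 1 gene, 0 in both and 7 in neither. In all 4 it was the H2A gene, H2AC6, H2AC13, H2AC15 or H2AC17, and its partner, H2BC4, H2BC13, H2BC15 or H2BC17, held none. For H2BC12 and its neighbour H2AC12 no pair could be formed, because the strand of H2AC12 was not used here. Since H2BC12 was the only H2B gene with a region, no pair could hold one in its H2B gene or in both. The counts by pair therefore follow from those by class and show nothing further about the pairs. Just 1 further region lay within the clusters on no gene at all. This 5xA region, 27839334 to 27839399 on the plus strand of chromosome 6, began 224 bases past the downstream end of H2BC15, on the strand of that gene.

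Of 28 genes listed as replication-independent histones and variants, 4 held regions in both lists, 0 with 5xA alone and 1 with WT alone. The list as drawn up also named H2AC25 and H2BC26, by their synonyms H2AW and H2BU1. The name rule counted both among the replication-dependent members, and neither held a region. The share of the 28 was 17.9% with WT (5 of 28, interval 6.06 to 36.9), beside 3.35% of all protein-coding genes. It was 14.3% with 5xA (4 of 28, interval 4.03 to 32.7), beside 7.45%. The WT interval begins above its background and the 5xA interval spans its own. H2AX, the variant phosphorylated at DNA breaks, held 1 and 2, where regions also overlap the span of DPAGT1. H3-3B, which encodes the replacement histone H3.3, held 1 region in each list, of 437 and 448 bases, wider than any region of a replication-dependent gene. H3-5, an intronless gene similar to H3-3B, held 1 of 78 and 1 of 80 bases. Whether reads could be placed in H3-5 or H3-3B alone was not tested. H3-7 held 1 WT region, which also lies in the pseudogene H2BP2. Among the genes of the 5xA list, 0 of 4 variants (interval 0 to 60.2) and 8 of 11 replication-dependent genes (39.0 to 94.0) lacked a WT region. These intervals overlap, and the difference was not tested.

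Of 29 genes for the synthesis, 3' end processing and decay of histone mRNA, 1 held a region in each list (3.45%, interval 0.0873 to 17.8), and this interval spans the background of both lists. ERI1, a nuclease that trims the histone stem-loop, held 1 WT region, and UPF1, a helicase of mRNA decay, held 2 5xA regions. SLBP, NPAT, LSM10, LSM11 and the rest of the list held none. Of 32 histone chaperone and chromatin assembly genes, UBN2, a subunit of the HIRA complex, held 1 WT and 3 5xA regions, of which none overlapped. SET held 1 WT region and SPTY2D1 held 1 5xA region, in a place that MISFA also spans. Of 36 replication fork genes, 3 were in both lists and 2 in that of 5xA. GINS1 held 2 WT and 1 5xA regions, RFC2 1 and 1, CDT1 0 and 1, and RRM2, a subunit of ribonucleotide reductase, 0 and 2. The regions of MCM7 (2 and 1) overlap MIR93 and MIR106B, miRNA genes inside it. The share of genes with a region was 6.25% in each list for chaperones (intervals 0.766 to 20.8), and for the fork 8.33% with WT (1.75 to 22.5) and 13.9% with 5xA (4.67 to 29.5). These intervals also span the background of their lists.

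The labelled cell type could be checked only by which mRNAs held a region. Among 13 colorectal epithelial markers CLDN4 held regions in both lists and VIL1, where USP37 also lies, with 5xA alone. The rest, EPCAM, CDH1, KRT20 and CDX2 among them, held none. The epithelial share was 7.69% with WT (interval 0.195 to 36.0) and 15.4% with 5xA (1.92 to 45.4). These intervals span the 3.35% and 7.45% of all protein-coding genes. Of 5 fibroblast markers COL1A1 was in both lists (20%, interval 0.505 to 71.6), and COL1A2, COL3A1, DCN and LUM held none. In neither list did any of 4 blood markers have a region. A missing region does not show that an mRNA was absent.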

How the data were processed

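The deposited files are 2 region lists of 6 columns (chromosome, start, end, name, score, strand). Per the labels, each serves both IP replicates of a genotype. The score, deposited as 0 in all 1190 and 2921 rows, was not used. Per the submitters' processing notes, the build was hg38 and the tools included TopHat2 and cutadapt 1.9.1. For peak calling, merging and reads that map to several genes, which bear on histone copies, the method was not given in the sources used here. Libraries were amplified with 11 to 15 PCR cycles, per the labels' protocols.

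Gene spans came from a RefSeq table of GRCh38.p14 and strands from a RefSeq promoter table, for 64 of 69 histone genes and 15843 of 20037 protein-coding genes. The other genes took regions of either strand. Overlaps were counted in Python 3.11.15 with pandas 2.3.3, checked with bedtools 2.31.1 and on simulated lists. Intervals came from scipy 1.17.1. Members, lists and rules were chosen with earlier results of these data known. All members with a region were named, as were all genes with a region in the other lists, except LOC loci and 1 gene that is not reported here. Alternatives changed the strand rule, the overlap, the gene span, the joining of regions and the counting of copies. The 8 input and knockout samples were not analysed here.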

Additional observations from a re-analysis of the deposited data

How the results depend on the processing

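All 26 alternatives run, over gene counts, region counts, shares of shared regions, positions and widths, stayed within 1.5 times the count, within the interval of the share or within 1 SD of the width. With so few regions these limits are wide. For the share of shared regions they ran from 29.2 to 100 with WT and from 6.02 to 61.0 with 5xA. Staying within them is thus a weak check. The 3 WT genes were the same under the 6 settings for which the genes were followed. With strand ignored the 5xA list had 12 histone genes, the added one being H4C15 through the region of H3C15. With H3C14 and H3C15, and H4C14 and H4C15, whose promoter windows are identical, counted as 1 gene each, it had 10. No share or interval is given for that count, so whether its interval would still begin above the 7.45% of all protein-coding genes was not tested. That alternative, the count of regions without strand and the sharing of joined regions were added after the data were seen. Counting members with identical proteins as 1 was planned and not run, since no protein sequences were used here. No paired analysis was possible because each list belongs to both replicates together, with no values per replicate, and for the same reason no replicate could be left out. With 3 and 11 regions, 1 region more or less moves a share by several points, and depth per region is unknown.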
